A study of Mus musculus with 5 samples.

Results

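Cycling immune cells of the lung are the white blood cells and their precursors that were caught while replicating their DNA or dividing. They were taken here from single-cell RNA-seq of dissociated whole lungs of 5 mouse embryos at E18.5, 2 labelled Zswim8+/- (Het1 and Het2) and 3 labelled Zswim8-/- (KO1 to KO3). Each embryo gave 1 library, and the labels name no treatment. The labels give no strain and no position of the deleted part of Zswim8, and no embryo with intact Zswim8 on both copies was among the samples, so the comparison is of 1 against 0 intact copies. A barcode counted as an immune cell when it had at least 500 genes, at most 15% mitochondrial UMIs (unique molecular identifiers, which count captured RNA molecules), at least 2 of the leukocyte genes Ptprc, Coro1a, Laptm5, Tyrobp and Fcer1g, at most 1 of the alveolar macrophage genes Car4, Krt79, Atp6v0d2 and Fabp4, and no UMI of the epithelial gene Epcam, the endothelial gene Cdh5 or the mesenchymal gene Pdgfra. It counted as cycling when it also held at least 1 UMI of both Mki67 and Top2a. The rule found 1501 cycling cells among 8587 immune cells, of 19491 barcodes that passed the filter on genes and mitochondrial UMIs and 50355 barcodes in all.

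Mki67 encodes the proliferation antigen Ki-67, which coats chromosomes in mitosis and is lost from resting cells, and Top2a encodes topoisomerase II alpha, which untangles DNA before chromosomes separate. In the late fetal lung, monocytes derived from the fetal liver enter the tissue and become alveolar macrophages, and macrophages of the tissue keep dividing in place. ZSWIM8 is the substrate receptor of a cullin-RING ubiquitin ligase that marks Argonaute proteins for destruction when the microRNA they carry is paired with an unusual target, which lowers the level of that microRNA. The microRNAs known to depend on it include miR-322 and miR-503, which are counted with miR-15 and miR-16 in one extended family and bind mRNAs of cyclins and other cell-cycle genes.

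Genes that peak in G2 and mitosis carry a known pair of promoter elements. TTTGAA, which reads as TTCAAA on the other strand, is the cell-cycle genes homology region, which is bound by repressor complexes in resting cells and by activating complexes in dividing ones. CCAAT, which reads as ATTGG on the other strand, is bound by NF-Y. Both were searched on both strands in windows that run from 250 bases before to 50 bases after the start of each gene (RefSeq, build GRCm38.p6), and overlapping matches were each counted. Of the 45 genes of a list of 51 G2 and mitosis genes that had a window, 31 (68.9%) held TTTGAA, 34 (75.6%) held CCAAT and 25 (55.6%) held both. Of 27025 genes with a window, 18.1%, 37.9% and 7.12% did. Of the 32 S-phase genes with a window, 4 (12.5%) held TTTGAA and 22 (68.8%) held CCAAT. A match is only a run of letters in this window. The windows of the genes that define the cells, Top2a (chr11:99024140-99024439, minus strand) and Mki67 (chr7:135716330-135716629, minus strand), and of a pair of mitotic genes high in these cells, Cdc20 (chr4:118437294-118437593, minus strand), which activates the anaphase-promoting complex, and Plk1 (chr7:122159185-122159484, plus strand), a mitotic kinase, are shown 5′ to 3′ with both motifs in capitals. Top2a held 2 matches to TTTGAA and 6 to CCAAT, Mki67 2 and 3, Cdc20 1 and 2, and Plk1 1 and 1.
Top2a: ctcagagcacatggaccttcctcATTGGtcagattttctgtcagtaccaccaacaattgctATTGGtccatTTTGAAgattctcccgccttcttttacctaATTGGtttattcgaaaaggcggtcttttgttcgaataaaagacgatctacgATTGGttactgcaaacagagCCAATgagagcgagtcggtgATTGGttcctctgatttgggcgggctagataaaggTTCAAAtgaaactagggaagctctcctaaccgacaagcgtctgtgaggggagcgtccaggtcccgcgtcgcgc
Mki67: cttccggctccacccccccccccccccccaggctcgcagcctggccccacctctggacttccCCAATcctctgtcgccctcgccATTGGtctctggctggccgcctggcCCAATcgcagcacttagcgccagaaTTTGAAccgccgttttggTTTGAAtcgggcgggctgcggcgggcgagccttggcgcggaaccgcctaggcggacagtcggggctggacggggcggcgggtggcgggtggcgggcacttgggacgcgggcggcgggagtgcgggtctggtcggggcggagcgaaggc
Cdc20: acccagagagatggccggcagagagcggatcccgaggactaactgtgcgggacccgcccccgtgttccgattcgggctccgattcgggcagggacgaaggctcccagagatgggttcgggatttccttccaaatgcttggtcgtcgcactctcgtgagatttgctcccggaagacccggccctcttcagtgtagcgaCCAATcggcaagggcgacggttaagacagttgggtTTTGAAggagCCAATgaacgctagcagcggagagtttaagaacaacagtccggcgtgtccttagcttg
Plk1: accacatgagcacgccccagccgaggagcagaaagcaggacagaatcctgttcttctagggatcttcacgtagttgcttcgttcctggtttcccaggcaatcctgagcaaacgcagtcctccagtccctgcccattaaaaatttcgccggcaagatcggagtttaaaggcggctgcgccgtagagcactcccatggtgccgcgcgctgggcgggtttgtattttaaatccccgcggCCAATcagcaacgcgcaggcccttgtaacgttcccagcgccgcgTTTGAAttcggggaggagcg

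The libraries held 56608582 to 93708304 UMIs, and the sums over cycling immune cells held 4059314 to 8620528 UMIs per embryo. Y-linked and Xist transcripts showed Het1, Het2 and KO3 to be male and KO1 and KO2 to be female. All Het embryos are thus male, and sex is partly confounded with genotype. Between 17 and 44 barcodes were shared by any pair of libraries, and none of the shared barcodes was a cycling immune cell in both. Zswim8 itself was at 29.3 and 31.0 CPM (UMI counts scaled to a common library total) in the cycling cells of Het1 and Het2, and at 24.0, 26.9 and 28.8 in those of KO1, KO2 and KO3. Its log2 fold change, KO over Het, was -0.17 (SE 0.10, edgeR adjusted p 0.637), so the 3′ counts neither showed a loss of the transcript nor checked the labels, and KO below means the libraries labelled so.

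The cells carried the markers of their name. Each of the 5 leukocyte genes was found in 95.5% to 100% of the cycling cells of every embryo. The median cell held 9 to 13 UMIs of Mki67 and 12 to 18 of Top2a, and only 4.57% to 7.17% of the cells of an embryo sat at the threshold with 1 UMI of each. Just outside the rule were 160 to 251 immune cells per embryo with Mki67 alone and 51 to 124 with Top2a alone. They are counted below among the non-cycling immune cells, which lack Mki67 or Top2a or both. In barcodes of red cells (under 500 genes and over 50% haemoglobin UMIs, median depth 2328 to 2621.5 UMIs), which have no nucleus, both genes were found in 0.0477% to 0.19%. With so few genes and UMIs, this share does not give the background at the depth of cycling cells. In immune cells with at least 5 of 6 mature neutrophil markers, cells that no longer divide, 0% to 1.16% carried both (0 of 120 in KO1, which allows up to 2.5%), at a median depth of 4072 to 4243 UMIs. That limit of 5 markers was set after the values were seen: with at least 3 markers the share was 4.88% to 9.06%. Cycling cells were deeper than the other immune cells, with medians of 19482 to 23098 against 9396.5 to 10683.5 UMIs, and with 4427 to 4746 against 2641.5 to 2960 genes.

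Beyond the 2 genes of the rule, genes of S phase, G2 and mitosis were high in these cells. The values in this paragraph are CPM of the summed counts without further scaling, and they are a description with no test, since the cells were chosen by 2 of these genes. All 51 genes of the G2 and mitosis list and all 43 of the S-phase list were higher in cycling than in non-cycling immune cells in every embryo. The median ratios were 13.2 and 4.23. Mki67 and Top2a are in neither list. Of 2832 genes with at least 50 CPM in the cycling cells of every embryo, the largest ratio was that of Hist1h1b, a linker histone made in S phase, at a mean of 214 against 2.26 (ratio 94.7, from 73.9 to 117 over embryos). Next came Top2a, at 718 against 7.75 (ratio 92.7), and the spindle proteins Nusap1, at 258 against 3.33 (77.4), and Kif11, at 151 against 2.16 (69.6). The histone Hist1h2ap, one of many near-identical histone genes among which reads can be split, had a ratio of 53.2, and Prc1, which bundles the central spindle, one of 46.1. The other 9 of the 15 largest were Plk1 (33.4), the kinetochore genes Knl1 (32.9) and Spc25 (32.2), the condensin subunit Ncapg (32.4), the spindle pole gene Aspm (28.3), cyclin B1 (Ccnb1, 24.6), the Aurora kinase Aurkb (24.1), the ribonucleotide reductase subunit Rrm2 (22.9) and the kinetochore gene Cenpf (22.8). Mki67 stood lower on this scale, at 579 against 31.7 (ratio 18.2).

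**Figure D1:**
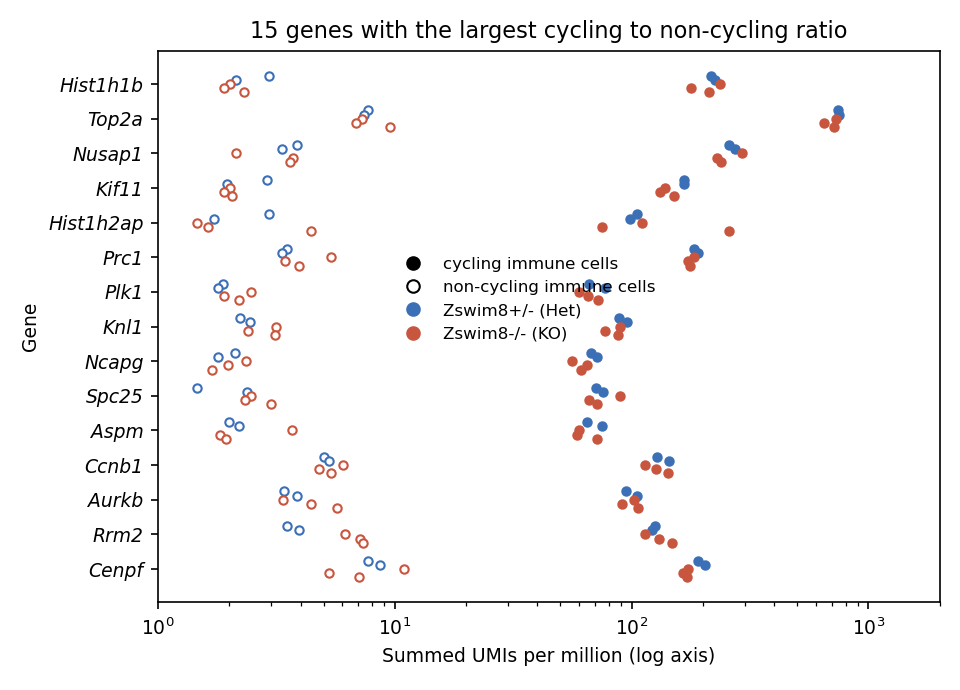
Summed CPM (log axis) of the 15 genes with the largest ratio, 1 point per embryo, in cycling (filled) and non-cycling (open) immune cells, blue for Zswim8+/- and red for Zswim8-/-. The filled points of each gene lie to the right of all its open points.

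Other groups of genes differed less between cycling and non-cycling cells, or were lower in cycling cells. Of 16 genes of ribosome biogenesis with Myc, 15 reached 5 CPM and 13 of these were higher in cycling cells in every embryo (median ratio 1.44). The cyclin D genes, which act before S phase, stood near 1, with ratios of 1.06 for Ccnd2 and 1.13 for Ccnd3, and Ccnd1 was lower in cycling cells (0.573). The cell-cycle inhibitor Cdkn1a was at 486 CPM in cycling and 487 in non-cycling cells. Of 15 interferon-stimulated genes, 14 were lower in cycling cells in every embryo (median ratio 0.15), as were 19 of 21 genes of interstitial macrophages (0.478). The lowest ratio was that of Retnlg, at 9.78 against 786 (ratio 0.0124), and the gelatinase gene Mmp9 stood at 1.49 against 72.6 (0.0205). Both are markers of mature neutrophils in the sets that follow. Of the 15 lowest, Ltf and S100a9 belong to the neutrophil granule set, and the others are in neither set. The mature neutrophil set was carried by 19.9% to 26.1% of the non-cycling and 6.14% to 7.87% of the cycling cells of an embryo. The part of this difference in cell mix in the ratios was not tested.

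How many immune cells were cycling was compared first. Cycling cells made up 15.3% of the immune cells of Het1 (311 of 2030, exact 95% binomial interval 13.8% to 17%), 17.2% of Het2 (341 of 1982, 15.6% to 18.9%), 16.9% of KO1 (175 of 1033, 14.7% to 19.4%), 17.3% of KO2 (293 of 1695, 15.5% to 19.2%) and 20.6% of KO3 (381 of 1847, 18.8% to 22.5%). The intervals cover counting error only. KO3 was the highest and Het1 the lowest, and KO1 lay between the Het embryos. The means were 16.3% ± 1.33 (SD, n = 2) and 18.3% ± 2.04 (SD, n = 3), a difference of 2.02 percentage points that did not exceed the spread between embryos (two-sided exact permutation test, p = 0.5, where 2 against 3 embryos cannot go below 0.1). Without KO3 the difference was 0.851 points. After each cell was thinned to 5000 UMIs, which left out 229 to 391 shallower cells per embryo, the shares were 13.5% and 15.9% in Het and 15.9%, 15% and 17.7% in KO (exact p = 0.4). In the same cells before thinning they were 18.8% to 24.7%.

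**Figure D2:**
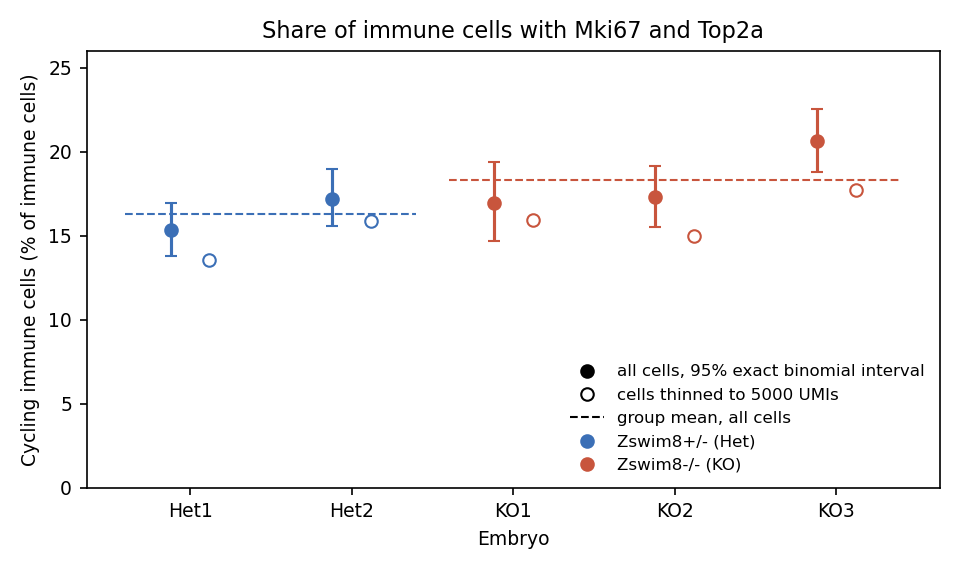
Cycling immune cells as a percentage of immune cells (vertical axis) in each embryo (horizontal axis): filled points with exact 95% binomial intervals for all cells, open points for cells thinned to 5000 UMIs, dashed lines for group means. KO3, at 20.6%, is the highest in both versions, and the other KO embryos lie within or beside the range of Het1 and Het2.

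The limit on alveolar macrophage genes removes cells unevenly. It left out 169 and 173 immune cells of Het1 and Het2 with at least 2 such genes, but only 8, 17 and 30 of KO1, KO2 and KO3, of which 33, 50, 2, 10 and 11 were cycling. With these cells kept, the shares were 15.6% and 18.1% in Het and 17.0%, 17.7% and 20.9% in KO (exact p = 0.6). Between 33 and 94 cycling cells per embryo held exactly 1 of the 4 genes.

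Which immune cells were cycling was read from 9 sets of marker genes, and a cell carried a set when it held at least 3 of its markers (2 of 3 for the C1q set), so that a cell could carry several or none. Monocyte and C1q macrophage sets were the most common, and both were more frequent among the cycling cells of every KO embryo than in either Het embryo. The monocyte set (6 genes, among them Ly6c2, Ccr2 and Vcan) was carried by 29.3% and 30.2% of the cycling cells of Het1 and Het2 and by 43.4%, 37.2% and 45.4% of those of KO1, KO2 and KO3. The C1q set (C1qa, C1qb and C1qc, the subunits of the complement starter C1q made by tissue macrophages) was carried by 11.6% and 9.68% in Het and by 16.6%, 19.1% and 16% in KO. Each difference, of 12.3 and 6.6 percentage points, had the smallest p that this design allows (exact permutation test, two-sided, p = 0.1; 0.3 adjusted over 9 sets), so neither passed. Median depth moved the same way, at 19482 and 20496 UMIs in the cycling cells of Het and 23098, 20214 and 22036 in those of KO. After thinning to 5000 UMIs the monocyte set was carried by 9.74% and 10.4% in Het and 13.9%, 15.4% and 14% in KO (exact p = 0.1, 0.3 adjusted), and the C1q set by 9.74% and 7.76% in Het and 11%, 14.7% and 13.2% in KO (exact p = 0.2, 0.45 adjusted). At 2 markers, unthinned, the monocyte set was carried by 62.7% and 66.3% in Het and 76%, 67.2% and 70.3% in KO (difference 6.70 points, exact p = 0.2, 0.45 adjusted). At 1 marker the C1q set was carried by 22.2% and 18.8% in Het and 29.1%, 31.7% and 33.3% in KO (exact p = 0.1, 0.45 adjusted). Summed transcripts of the monocyte set were level in cycling cells, at 680 and 627 CPM in Het and 621, 694 and 688 in KO.

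At 3 markers the remaining sets were rare in cycling cells. The B-lineage set, of genes of antibody-producing cells and their precursors, was carried by 6 cycling cells of Het1 and 3 of Het2 and by none of the 849 cycling cells of the KO embryos, which allows up to 1.71%, 1.02% and 0.787% in KO1, KO2 and KO3 (exact p = 0.1, 0.3 adjusted). Non-cycling cells with this set were also scarcer in KO, at 2.21% and 1.1% in Het and 0.466%, 0.357% and 0.477% in KO, where only 4, 5 and 7 immune cells carried the set in all. At 2 markers the groups overlapped: the B-lineage set was carried by 2.57% and 0.88% of the cycling cells of Het and 0%, 0.341% and 1.57% of those of KO (exact p = 0.3, 0.45 adjusted). The neutrophil granule set was carried by 6.43% and 6.74% in Het and 2.29%, 2.73% and 5.77% in KO (exact p = 0.2, 0.45 adjusted), and the mature neutrophil set by 6.14% to 7.87% with no gap between the groups. These neutrophil values depend on the number of markers asked for: at 2 markers the granule set was carried by 55.3% and 51.6% of the cycling cells of Het and by 30.9%, 32.4% and 41.2% of those of KO (difference -18.6 points, exact p = 0.1, 0.45 adjusted), and the mature set by 25.7% to 32.0%. T, NK and innate lymphoid, mast and basophil, dendritic and granulocyte precursor sets were each carried by 0% to 4% of the cycling cells of an embryo. With the mature neutrophil set not counted, no set was carried by 52.1% and 55.1% of the cycling cells of Het1 and Het2. In KO1, KO2 and KO3 these shares were 42.9%, 45.4% and 34.9%.

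**Figure D3:**
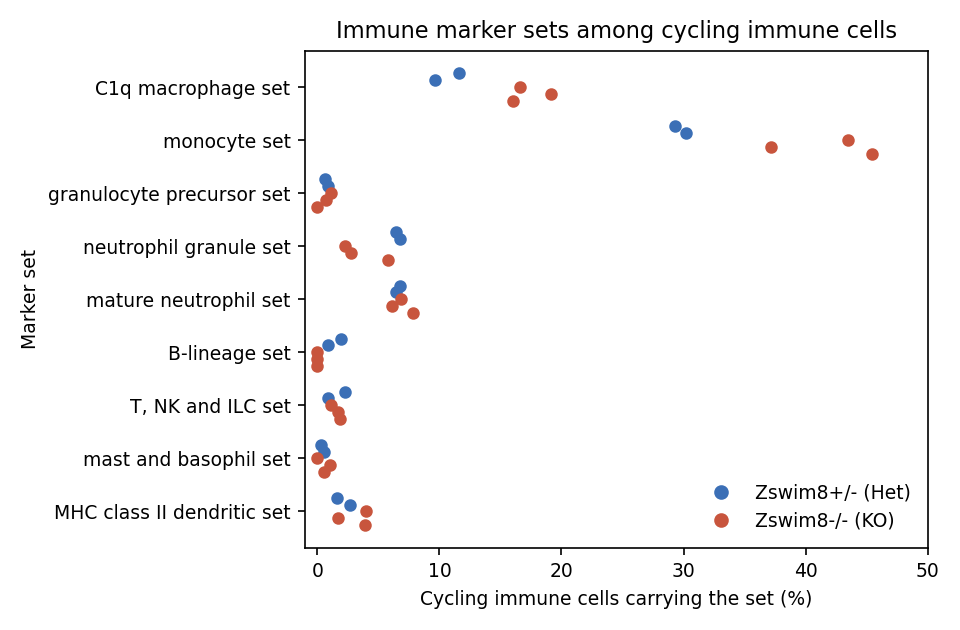
Percentage of cycling immune cells that carry each of 9 marker sets (vertical axis: set), 1 point per embryo, blue for Zswim8+/- and red for Zswim8-/-. The red points of the monocyte and C1q sets lie to the right of both blue points, and the B-lineage set is at 0 in all 3 KO embryos.

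The proportion of each set that was cycling did not pass a test for either set. Of the immune cells with the monocyte set, 12.6% and 14.2% were cycling in Het and 21.5%, 15.5% and 22.5% in KO (exact p = 0.2, 0.45 adjusted over 9 sets). Of those with the C1q set, 13.5% and 13.5% were cycling in Het and 8.45%, 12.9% and 12.8% in KO (exact p = 0.4, 0.6 adjusted over 9 sets). The C1q set was carried by 13.4% and 12.9% of non-cycling immune cells in Het and by 36.6%, 26.9% and 28.4% in KO. The genotype difference in cycling cells was set against that in non-cycling cells gene by gene, in a test described further on: C1qa, C1qb and C1qc had log2 fold changes of 0.62, 0.72 and 0.65 in cycling and 1.45, 1.46 and 1.48 in non-cycling cells, and the terms for the difference did not pass after adjustment (edgeR adjusted p 0.26, 0.211 and 0.211). In the cycling cells alone edgeR called none of the 3 (adjusted p 0.113 to 0.195), and DESeq2 called all 3.

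Gene by gene, few differences between the cycling immune cells of KO and Het embryos passed the test. UMIs were summed over the cycling cells of each embryo and compared with edgeR's quasi-likelihood test. Values of single genes from here on are CPM of the library size scaled by TMM (trimmed mean of M-values, which offsets shifts in composition). Sums over a list of genes, and ratios of UMIs pooled over a group, are without this scaling. Fold changes are log2 of KO over Het, and p-values are adjusted by the Benjamini-Hochberg method over all genes tested. Of 11477 genes, 8 passed an adjusted p under 0.05 (0.0697%), 2 higher (0.0174%) and 6 lower (0.0523%) in KO, and 1170 had an unadjusted p under 0.05 (10.2%). DESeq2 called 109 genes, among them all 8. In non-cycling immune cells 793 of 13483 genes passed (5.88%), and 668 passed when their sums were thinned to the UMI totals of the cycling sums. The call depends on single embryos: no gene passed without Het1 (682 unadjusted) or without KO2 (844 unadjusted), 1 gene, none of the 8, passed without Het2 (723 unadjusted), 20 passed without KO1 and 35 without KO3. All Het embryos being male, sex was also entered as a term: 6 genes then passed, 4 of them among the 8 (Ifitm2, Slamf9, Wfdc17 and Vpreb3). Among males alone 23 passed, 3 of them among the 8 (Ifitm2, Vpreb3 and Cd79a). All 8 kept their direction in each of these fits.

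One of the 2 genes that rose was Ifitm2 (ENSMUSG00000060591, chr7:140954837-140955987, minus strand, GRCm38), a member of the interferon-induced transmembrane family, whose proteins hinder entry of viruses into cells. In cycling cells it stood at 77.3 and 77.6 in Het1 and Het2 and at 153, 167 and 154 in KO1, KO2 and KO3. The groups did not overlap, and within each the embryos lay close together (log2 fold change 1.03, SE 0.07, edgeR adjusted p 0.0154). It was found in 45.7% and 42.2% of the cycling cells of Het and in 59.8% to 60.8% of those of KO, and a cycling cell held 1.52 to 3.62 of its UMIs on average against 0.0599 to 0.0917 in a red-cell barcode. Among male embryos alone, KO3 against both Het embryos, its log2 fold change was 0.99 (edgeR adjusted p 0.0288). In non-cycling cells of every embryo Ifitm2 stood above its level in cycling cells, at 413 and 422 in Het and 539, 658 and 479 in KO (0.42, edgeR adjusted p 0.0985). Abi3bp, an extracellular matrix protein, also passed, at 0.82 and 0.7 in Het and 5.62, 6.51 and 6.37 in KO (3.00, SE 0.34, edgeR adjusted p 0.0493), but 1 cell held 54.5%, 92.3% and 59.6% of its UMIs in KO1, KO2 and KO3, and 80% in Het2. Abi3bp lies below the level set for named genes and was chosen after its values were seen.

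Of the genes that fell, 3 were genes of myeloid cells or receptors found in many cycling cells. Slamf9 (ENSMUSG00000026548, chr1:172475358-172478575, plus strand) is a SLAM-family receptor of myeloid cells. It stood at 54.9 and 59.3 in Het and at 29.4, 31.6 and 27.4 in KO (-0.96, SE 0.09, edgeR adjusted p 0.0193), and it was found in 56.6% and 57.5% of the cycling cells of Het and 40.6% to 41.5% of those of KO. Nrp2 (ENSMUSG00000025969, chr1:62703285-62818695, plus strand), a neuropilin receptor for semaphorins and VEGF, stood at 42.8 and 49.7 in Het and 23.7, 25.7 and 26.4 in KO (-0.86, SE 0.10, edgeR adjusted p 0.0493). Wfdc17 (ENSMUSG00000069792, chr11:83703991-83706268, plus strand), a small secreted protein of macrophages, stood at 70.6 and 89.5 in Het and 34.2, 32.6 and 24.7 in KO (-1.42, SE 0.15, edgeR adjusted p 0.0493). The groups did not overlap for any of the 3 genes. For Wfdc17, 1 cell held 23.4% and 21.6% of the UMIs of Het1 and Het2. Slamf9 and Wfdc17 also passed in non-cycling cells (-1.11 and -0.50, edgeR adjusted p 0.00498 and 0.0458), and Nrp2 did not (-0.48, adjusted p 0.24).

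The other genes that fell were of the B lineage, and their UMIs lay in a few cells. Vpreb3 (ENSMUSG00000000903, chr10:75943057-75949657, plus strand), a partner of the pre-B-cell receptor, had 240 UMIs in the cycling cells of Het and 4 in those of KO, a ratio of 84.4 in CPM (exact 95% interval of the counts 32.5 to 312). Cd79a (ENSMUSG00000003379, chr7:24897381-24902197, plus strand), the signalling chain of the B-cell receptor, had 152 and 6 (ratio 35.6, 16 to 98.6). Mzb1, a chaperone of antibody-secreting B cells that lies below the level set for named genes and was chosen after its values were seen, had 111 and 0, at least 52.0-fold lower in KO against a floor of 3 counts over the group. These intervals and the floor take UMIs as independent, and they leave out the spread between cells and between embryos. The edgeR adjusted p-values were 0.0193, 0.0193 and 0.0493. The 6 and 3 cells with the B-lineage set held 95.8% to 100% of the UMIs of these genes in Het1 and Het2. Cd79a also passed as lower in non-cycling cells (-1.73, edgeR adjusted p 0.0141). Of the 6 genes of the B-lineage set, 4 had negative and 2 positive fold changes there, and 2 passed by edgeR, both lower. With the cells of the set left out, 2 genes passed in all, Ifitm2 (adjusted p 0.0159) and Slamf9 (0.0317).

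**Figure D4:**
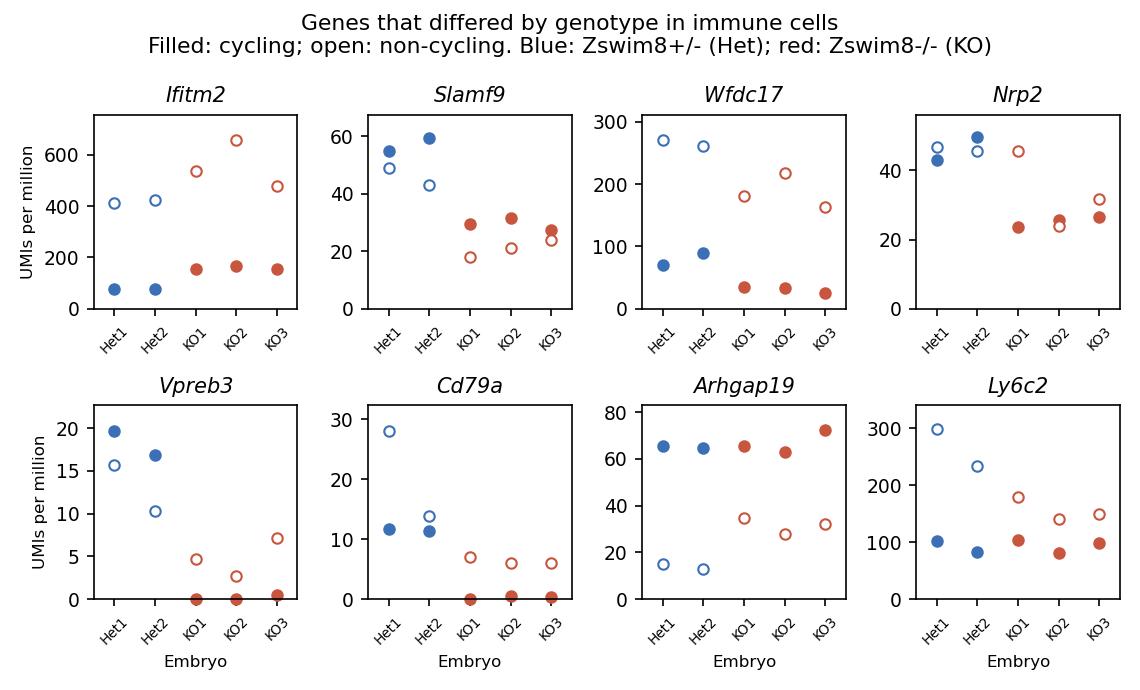
TMM-scaled CPM (vertical axes, from 0) of 8 genes in cycling (filled) and non-cycling (open) immune cells of each embryo (horizontal axes), blue for Zswim8+/- and red for Zswim8-/-. Ifitm2 is higher and Slamf9, Wfdc17, Nrp2, Vpreb3 and Cd79a are lower in the filled red points than in the filled blue ones, while Arhgap19 and Ly6c2 separate the colours only in the open points.

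The cell-cycle genes themselves gave no call. None of the 43 S-phase genes passed in cycling cells (edgeR; 2 higher and 1 lower unadjusted, against 4.62% and 5.58% of all genes), and their median log2 fold change was 0.04 beside 0.01 over all genes. Together they made up 2945 and 2933 CPM in Het and 2971, 3016 and 3069 in KO. None of the 51 G2 and mitosis genes passed (0 higher and 6 lower unadjusted), with a median of -0.11. None of the 6 belongs to the rule that chose the cells. The kinesin Kif11 stood at 167 and 166 in Het and 143, 133 and 145 in KO (-0.24, adjusted p 0.311), and cyclin B2 (Ccnb2) at 144 and 146 in Het and 125, 115 and 130 in KO (-0.24, adjusted p 0.352). Of 27 cyclins, CDKs and their inhibitors tested, none passed and 2 were lower unadjusted: the CDK-activating phosphatase Cdc25b, at 52.7 and 52 in Het and 42.9, 40.6 and 41.5 in KO (-0.33, adjusted p 0.147), and the anti-proliferative gene Btg2 (-0.28, adjusted p 0.254). DESeq2 called none of the S-phase or G2 and mitosis genes, and Btg2 alone of the cyclin list.

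In non-cycling cells, of the 43 S-phase genes, 6 passed and all 6 were higher in KO (2.57% of all genes were called higher), 22 were higher at an unadjusted p under 0.05, and the median was 0.41. Mcm6, a subunit of the replicative helicase, stood at 23.4 and 25.8 in Het and 42.4, 42.2 and 37.8 in KO (0.73, SE 0.08, edgeR adjusted p 0.00574), and Rrm2 at 3.62 and 3.94 in Het and 6.17, 7.13 and 7.05 in KO (0.85, adjusted p 0.0264). Mcm3, Tipin and Cdca7 were also called. The non-cycling cells include those with Mki67 alone or Top2a alone. These were 251 and 102 of 1719 cells in Het1 and 250 and 96 of 1641 in Het2. In KO1 they were 160 and 51 of 858, in KO2 199 and 74 of 1402, and in KO3 245 and 124 of 1466. The part of these cells in the S-phase values was not tested. The summed list stood at 650 and 707 CPM in Het and 876, 849 and 816 in KO, every KO embryo above both Het embryos (exact permutation test, p = 0.1, the smallest possible). In cycling cells Mcm6 stood at 107 and 106 in Het and 122, 114 and 118 in KO. The test of the difference between the genotype effects did not pass for either gene (edgeR adjusted p 0.189 for Mcm6 and 0.165 for Rrm2), nor for any other gene of the list.

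That test was made for 12748 genes with the embryo as a block, and 4 passed (0.0314%; 1114 or 8.74% unadjusted), of which 3 (0.0235%) had a lower and 1 (0.00784%) a higher log2 fold change in cycling than in non-cycling cells. Arhgap19 (ENSMUSG00000025154, chr19:41766588-41802047, minus strand), a GTPase-activating protein that works in cell division of lymphocytes, stood at 63 and 62 in the cycling cells of Het and 63, 60.7 and 69.4 in those of KO. In non-cycling cells, those with Mki67 or Top2a alone among them, it stood at 15.2 and 13.2 in Het and 36.5, 29.2 and 33.4 in KO. The gene was thus level in cycling cells and separated the groups in non-cycling cells (difference of log2 fold changes -1.16, SE 0.12, edgeR adjusted p 0.0375). Ly6c2 (ENSMUSG00000022584, chr15:75108158-75111970, minus strand), the Ly6C antigen of inflammatory monocytes and a marker of the monocyte set, stood at 98.8 and 79.7 in the cycling cells of Het and 100, 79.1 and 94.6 in those of KO, and at 306 and 241 against 189, 148 and 155 in non-cycling cells (0.78, SE 0.08, edgeR adjusted p 0.0429). It too was level in cycling cells. The other 2 were Vpreb3 (-5.12) and Vpreb1 (-8.30), genes of the pre-B-cell receptor (edgeR adjusted p 0.0375 for each). Scaled by library size alone no gene passed (1101 unadjusted), nor without Het1 (692), Het2 (821) or KO3 (1228). Without KO2 1 gene passed, none of the 4 (994 unadjusted), and 21 passed without KO1 and 64 among males, all 4 among them in each. With sex as a term 16 passed, 3 of the 4 among them; Arhgap19 did not (-1.08, adjusted p 0.0625).

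In the sum over cycling cells, macrophage genes had fold changes mostly of one sign within each list, and none passed edgeR's test. Of 19 genes of alveolar macrophage maturation tested in cycling cells, 12 were lower and 2 higher in KO at an unadjusted p under 0.05, where 5.58% and 4.62% of all genes were, and none passed after adjustment by edgeR (median -0.41). DESeq2 called 6 of them, all lower: Plet1, Lpl, Olr1, Ear2, Marco and Cd9. The lipoprotein lipase gene Lpl stood at 866 and 914 in Het and 610, 682 and 680 in KO (-0.44, adjusted p 0.114). Plet1 stood at 494 and 495 in Het and 374, 351 and 320 in KO (-0.51, adjusted p 0.0981), and the scavenger receptor Olr1 at 162 and 158 in Het and 115, 82.7 and 97 in KO (-0.71, adjusted p 0.113). Pparg, the transcription factor that directs alveolar macrophage formation, stood at 94.2 and 92.6 in Het and 79.9, 72.5 and 80.8 in KO (-0.26, adjusted p 0.307). For all 4 genes both Het embryos lay above the 3 KO embryos. The rule had already left out cells with 2 or more of Car4, Krt79, Atp6v0d2 and Fabp4, so cells furthest along this path are not among those summed; with them kept, 30 genes passed in the sum over cycling cells. In non-cycling cells 9 of 19 genes of the list passed, all lower (3.32% of all genes were called lower). Within C1q-positive cycling cells alone the list ran the other way. There 10 of 12 genes tested had positive fold changes (median 0.26), with 2 higher and 0 lower unadjusted. By edgeR 1 of them passed, Fabp5, which was higher, and DESeq2 called none.

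Of 21 genes of interstitial macrophages tested, 8 were higher and 1 lower unadjusted and none passed by edgeR (median 0.24). DESeq2 called Apoe and Igf1. Apoe, the apolipoprotein secreted by macrophages, stood at 1190 and 1023 in Het and 2293, 1810 and 1617 in KO (0.78, adjusted p 0.132), and the growth factor Igf1 at 11.9 and 21.6 in Het and 32.4, 37.4 and 35 in KO (1.05, adjusted p 0.146). The share of cycling cells with the C1q set moved in the same direction, from 9.68% to 11.6% in Het to 16% to 19.1% in KO; within C1q-positive cycling cells alone, none of 21 genes of the list passed, with 1 higher and 10 lower unadjusted (median -0.48; DESeq2 called Cx3cr1, lower). In non-cycling cells 17 of 22 genes of the same list passed, all higher (median 1.13), where 2.57% of all genes were called higher. Receptors for colony-stimulating and growth factors stood level: of 14 tested none passed (edgeR, 1 higher and 2 lower unadjusted; none by DESeq2), with Csf1r at 203 and 184 in Het and 209, 224 and 239 in KO (0.22, adjusted p 0.446) and the GM-CSF receptor chain Csf2rb at 362 and 401 in Het and 402, 389 and 336 in KO (-0.02, adjusted p 0.968).

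None of 6 neutrophil granule genes passed by edgeR, with 4 higher unadjusted, and DESeq2 called Camp and Ngp. Camp, an antimicrobial peptide of granule precursors, stood at 0.65 and 1.54 in Het and 480, 2 and 46.5 in KO (7.21, adjusted p 0.378), and 1 cell held 99.9% of its UMIs in KO1. Of 15 genes of ribosome biogenesis with Myc tested, 3 were higher unadjusted and none passed by edgeR or DESeq2 (median 0.16). Of 14 p53 response genes, 1 was higher and 1 lower unadjusted and none passed by edgeR or DESeq2 (median -0.03). Among 16 genes that respond to tissue dissociation, 5 were higher and 1 lower unadjusted and none passed by edgeR (median 0.10), while DESeq2 called Fosb, Jund and Ier3, all higher. Erythroid transcripts summed to 9939 and 9886 CPM in the cycling cells of Het and 1831, 8199 and 6079 in those of KO, and all 8 epithelial markers together to 330 and 534 in Het and 349, 210 and 278 in KO; their part in the gene results was not tested. Cells with at least 3 of the 8 epithelial markers made up 37.3% and 33.4% of the cycling cells of Het and 48%, 25.3% and 36.7% of those of KO. With at least 3 of the 8 mesenchymal markers the shares were 3.54% and 7.04% in Het and 6.86%, 2.73% and 15.5% in KO, KO3 being the highest.

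The targets of the microRNAs that ZSWIM8 is known to act on were looked at next, since several are cyclins. The mature microRNAs are shown 5′ to 3′ with the seed, bases 2 to 8, in capitals (RefSeq, GRCm38.p6). miR-15a, miR-16 and miR-322 share the seed AGCAGCA and miR-503 has AGCAGCG. No microRNA level was measured in these libraries.
miR-15a-5p: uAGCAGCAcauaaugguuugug
miR-16-5p: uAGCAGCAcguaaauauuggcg
miR-322-5p: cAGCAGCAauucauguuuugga
miR-503-5p: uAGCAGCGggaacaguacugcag
Of 11 known cell-cycle targets of the family, none passed in the sum over cycling cells, and none had an unadjusted p under 0.05 in either direction or passed by DESeq2 (median 0.13 beside 0.01 over all genes). In the C1q-positive cycling cells described below, 1 of 10 targets tested passed. This was Ccnd1, lower by edgeR and DESeq2, and 5 of the 10 had positive fold changes (median -0.19). Cyclin D3 (Ccnd3) stood at 135 and 149 in Het and 149, 164 and 154 in KO (0.13, SE 0.08, adjusted p 0.635), the phosphatase Cdc25a, which activates CDKs, at 46.8 and 53.4 in Het and 56.1, 49.4 and 50.2 in KO (0.04, adjusted p 0.932), and Cdk6 at 95.7 and 87.1 in Het and 77.8, 88 and 79.5 in KO (-0.16, adjusted p 0.596). Het and KO overlapped for all 3 of these genes. Of 12 transcripts that trigger microRNA decay or host microRNAs, none passed by edgeR (1 higher and 1 lower unadjusted), and DESeq2 called Oip5os1. Oip5os1 (Cyrano), whose RNA pairs with miR-7 and triggers its decay, stood at 96.5 and 102 in Het and 67.6, 77.3 and 69 in KO (-0.48, SE 0.08, adjusted p 0.111), with both Het embryos above the 3 KO embryos, and it passed in non-cycling cells (-0.47, adjusted p 0.0109).

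Within the cycling cells, those with at least 2 of C1qa, C1qb and C1qc, 36 and 33 cells in Het and 29, 56 and 61 in KO, were compared on their own. Genes of the interferon response were lower in KO there. Of 7119 genes, 45 passed (0.632%), 5 higher (0.0702%) and 40 lower (0.562%), and 738 had an unadjusted p under 0.05 (10.4%). Of 12 interferon-stimulated genes of the list that were tested, 9 passed, all lower, and the median was -1.37 beside 0.01 over all genes. DESeq2 called the same 9. In the sum over all cycling cells none of 12 passed by edgeR or DESeq2 and 7 were lower unadjusted (median -0.40). In non-cycling cells 14 of 15 had negative fold changes (median -0.91), 5 were lower unadjusted, where 11.4% of all genes were, and 1 passed by edgeR and 2 by DESeq2. Whether the C1q-positive cells differ from the others in this was not tested. No other list had more than 4 members called.

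The called members named here are sensors, regulators and products of the interferon response. Irf7, a transcription factor that amplifies type I interferon, stood at 29.2 and 38.2 in Het and 4.97, 6.01 and 9.22 in KO (-2.22, SE 0.42, edgeR adjusted p 0.0262). Its highest KO embryo, KO3, lay below the lower Het embryo. The sensor Ifi204 stood at 233 and 276 in Het and 118, 105 and 133 in KO (-1.10, adjusted p 0.01), and the chemokine Cxcl10 at 522 and 487 in Het and 116, 147 and 266 in KO (-1.49, adjusted p 0.0162). Bst2 (tetherin), which holds virus particles on the cell, stood at 408 and 331 in Het and 227, 112 and 169 in KO (-1.15, adjusted p 0.0356). Oasl2 (-2.54), Isg15 (-1.99), Ifit2 (-3.95) and Ifit3 (-3.29) were also called. These 4 and Irf7 rest on few UMIs: Irf7 had 16 and 21 in Het and 3, 7 and 12 in KO, Oasl2 44 and 36 against 10, 6 and 22, and Isg15 45 and 33 against 20, 11 and 22. Ifit2 had 1 to 3 in each KO embryo against 19 and 11 in Het, of which 1 cell held 63.6% in Het2. For Oasl2, 18 of 36 and 13 of 33 cells in Het held a UMI, and 10 of 29, 4 of 56 and 12 of 61 in KO, at median depths of 17594.5 and 17043 against 22823, 20866 and 21522 UMIs.

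Among the other list members called in the C1q-positive cycling cells, cyclin D1 (Ccnd1, ENSMUSG00000070348, chr7:144929931-144939925, minus strand), which drives entry into the cell cycle, stood at 135 and 135 in Het and 53.1, 55.8 and 53.8 in KO (-1.31, SE 0.19, edgeR adjusted p 0.00512). Each KO embryo was at well under the Het level, with 1 cell holding 50% of the 32 UMIs of KO1. Over all cycling cells Ccnd1 did not differ in this way, at 24.9 and 24 in Het and 22.2, 31.9 and 25.6 in KO (0.13, edgeR adjusted p 0.827). Ccnd1 is also among the microRNA family targets given above. The fatty acid binding protein Fabp5 belongs to the alveolar macrophage maturation list. It stood at 204 and 171 in Het and 1028, 567 and 347 in KO (1.77, SE 0.35, edgeR adjusted p 0.0293), a wide spread among KO embryos. Fos, an early response gene that also marks tissue dissociation, stood at 2028 and 2399 in Het and 789, 1194 and 1405 in KO (-0.97, edgeR adjusted p 0.0476). All 16 dissociation genes had negative fold changes here, 12 of them at an unadjusted p under 0.05. None of the 39 S-phase genes tested passed by edgeR or DESeq2, and 9 were lower unadjusted, where 5.75% of all genes were (median -0.38).

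Transcripts of other cells moved with these results. The club-cell gene Scgb1a1 stood at 60.2 and 45.4 in the C1q-positive cycling cells of Het and 24.9, 10.3 and 10.8 in those of KO (-1.94, edgeR adjusted p 0.0246), and it was also present in red-cell barcodes, at 0.47 and 0.274 UMIs each in Het and 0.229, 0.102 and 0.14 in KO. All 4 adult haemoglobin genes tested were called lower, between -2.44 and -1.96, and 1 cell held 44.9% to 82.6% of the UMIs of each in Het. The part of these transcripts in the other results was not tested; Isg15 was at 0.00579 to 0.0488 and Cxcl10 at 0.00243 to 0.00474 UMIs per red-cell barcode. Without KO1 no gene passed (608 unadjusted), and none passed among males (264 unadjusted). With sex as a term 7 passed, and all 45 kept their direction in each of these fits. The 8 called interferon-stimulated genes named here had log2 fold changes of -3.96 to -1.10 without KO1 and -4.89 to -0.92 among males.

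**Figure D5:**
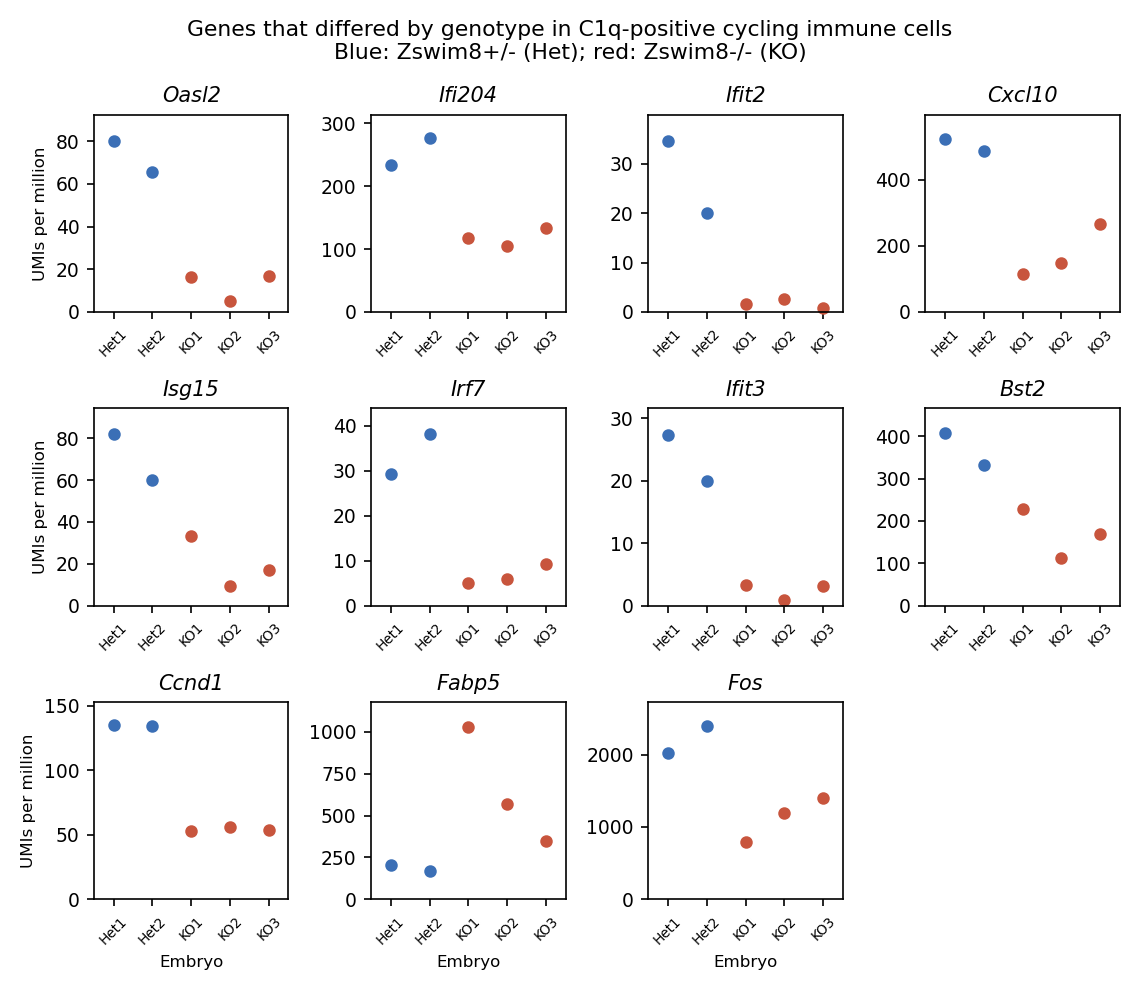
TMM-scaled CPM (vertical axes, from 0) of 8 interferon-stimulated genes and of Ccnd1, Fabp5 and Fos in C1q-positive cycling immune cells of each embryo (horizontal axes), blue for Zswim8+/- and red for Zswim8-/-. In every panel but that of Fabp5 all 3 red points lie below both blue points.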

How the data were processed

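Single-cell 3′ libraries of dissociated lungs were counted by the authors with Cell Ranger 4.0.0 against mm10, per the submitters' processing notes, and the deposited matrices hold raw UMI counts per gene and barcode. Filters before deposit are not given in the sources used here. The members and the gene lists were chosen with earlier results of these data known.

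Barcodes were kept and classed by the rule in the text. Doublets were not removed; simulated-doublet calls (expected 0.8% per 1000 cells) were left out as an alternative and took 4 to 19 cycling cells per embryo. Counts were summed per embryo over cycling, non-cycling and C1q-positive cycling cells and compared with edgeR 4.0.16 (TMM, filterByExpr, glmQLFit, glmQLFTest, R 4.3.3), adjusted over all genes, threshold 0.05. The genotype by cycling test kept the embryo as a block. DESeq2 1.42.0 was an alternative. Shares were compared by exact permutation over embryos (scipy 1.17.1). Since each embryo gave 1 library, p-values measure the spread between these embryos. The scripts were tested on simulated data. None of the 4 pairs of libraries within a group agreed within sampling noise. Of 32285 gene IDs, 32235 were found in the GENCODE M21 annotation, from which gene positions were taken.

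Named were genes called in cycling cells with groups that do not overlap and 20 CPM or more on average where they were higher, up to 12 in each direction, up to 5 in each direction of the genotype by cycling test, called list members, and the 15 genes with the largest cycling ratio. Sex-linked, haemoglobin and mitochondrial genes and genes of the rule were left out, except that haemoglobins are given as a measure of red-cell RNA and Mki67 and Top2a as a description. Other list members were named as examples after their values were seen. Some genes that the rule names are not reported here.

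Alternatives were library size alone, no low-count filter, a filter at 50 counts, at least 2 UMIs of Mki67 and Top2a, no limit on alveolar macrophage genes, 1000 genes and 10% mitochondrial UMIs, doublets left out, a replicate block, sex as a term, DESeq2 and each embryo left out.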

Additional observations from a re-analysis of the deposited data

Results flagged for a closer look

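The difference between KO and Het differed between cycling and non-cycling immune cells for 4 genes, by a test of that difference itself (edgeR, embryo as block, 12748 genes). Arhgap19 had a log2 fold change that was lower in cycling than in non-cycling cells by 1.16 (difference -1.16, adjusted p 0.0375), and in all 3 KO embryos the gap between its cycling and non-cycling level (0.78 to 1.05 on the log2 scale) was smaller than in Het (2.03 and 2.22). Ly6c2 had the opposite sign (difference 0.78, adjusted p 0.0429), with levels below those of non-cycling cells by log2 values of -1.63 and -1.59 in Het and -0.91, -0.91 and -0.71 in KO. Both stood at like levels in the cycling cells of Het and KO. Among male embryos alone the differences were -1.08 for Arhgap19 (adjusted p 0.0185) and 0.90 for Ly6c2 (adjusted p 0.00383), with sex as a term they were -1.08 (adjusted p 0.0625) and 0.90 (adjusted p 0.0248), and without the B-lineage cells both had an adjusted p of 0.0979.

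Vpreb3 (difference -5.12) and Vpreb1 (difference -8.30) rest on the 6 and 3 cycling cells with the B-lineage set in Het1 and Het2, which held 97.6% to 100% of their UMIs there (edgeR adjusted p 0.0375 for each). Vpreb1 stood at 6.15 and 11.2 CPM in the cycling cells of Het and at 0, 0.323 and 0 in those of KO, and at 0.31 and 1.29 in the non-cycling cells of Het and 3.31, 2.67 and 3.49 in those of KO.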

How the results depend on the processing

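The share of immune cells that were cycling was higher in KO by 2.02 percentage points and kept this direction in all alternatives (0.851 to 2.96 with 1 embryo left out, exact p 0.333 to 0.75). Whether replicate numbers pair the embryos could not be told from the counts. The r was 0.163 for Het1 with KO1 and 0.0623 for Het2 with KO2, 2 pairs only. With 2 Het embryos, the r of Het1 with a KO embryo is always the negative of that of Het2. The replicate block, which drops KO3, gave 0.851 points for the share. It gave 289 genes in cycling cells, 764 in non-cycling cells, 201 for the genotype by cycling test and 85 in C1q-positive cells. The cause was not tested for any change given here.

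Genes called in cycling cells (8) were 5 with library size alone, 184 with no low-count filter, 5 with a filter of 50, 6 with sex as a term (4 of the 8), 30 with alveolar macrophage cells kept, 109 with DESeq2 and 0 to 35 with 1 embryo left out; chosen after seeing the data, 23 among males (3 of the 8; KO3 alone is then taken to vary like Het, as is a lone Het embryo where the other is left out) and 2 without B-lineage cells. In non-cycling cells (793, 43.6% higher) they were 18 with sex as a term, 1288 among males and 63 to 1172 with 1 embryo left out (63 without Het1, 99 without Het2, 367 without KO2, 1172 without KO1); library size alone gave 684, 58.8% higher. For the genotype by cycling test (4) they were 0 with library size alone (1101 unadjusted), 239 with no low-count filter, 12 with at least 2 UMIs, 18 with alveolar macrophage cells kept, 16 with sex as a term, 64 among males, 0 without B-lineage cells (1069 unadjusted) and 0 to 21 with 1 embryo left out. In C1q-positive cells (45) they were 29, 134 and 14 under the same scaling and filters, 7 with sex as a term, 0 among males (264 unadjusted), 34 with DESeq2 and 0 to 161 with 1 embryo left out (9 without Het1, 11 without Het2, 0 without KO1, 11 without KO2, 161 without KO3). The fit of C1q-positive cells with at least 2 UMIs was not run, since KO1 had fewer than 20 cells.

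Differences in 5 of 9 marker sets reversed under some alternative. The granulocyte precursor set (-0.153 points) gave 0.193 after thinning and 0.151 without KO3. The neutrophil granule set (-2.99) gave 0.0479 after thinning. The mature neutrophil set (0.356) gave -0.583 after thinning and -0.102 without KO3. The T, NK and innate lymphoid set (-0.00308) gave 0.0223 after thinning, 0.682 without Het1 and 0.207 without KO1. The mast and basophil set (0.0622) gave -0.0702 without Het1 and -0.192 without KO2. With 1 embryo left out the differences ran from 5.66 to 7.55 for the C1q set, 10.6 to 14.7 for the monocyte set, -0.42 to 0.151 for the granulocyte precursor set, -4.08 to -2.34 for the neutrophil granule set, -0.102 to 0.764 for the mature neutrophil set, -1.93 to -0.88 for the B-lineage set, -0.689 to 0.682 for the T, NK and innate lymphoid set, -0.192 to 0.32 for the mast and basophil set and 0.575 to 1.84 for the dendritic set. Direction was followed for genes called in cycling cells or in the genotype by cycling test, called list members in C1q-positive cells, and Zswim8. All of these kept their direction, in 281 comparisons with the same call and 178 with a weaker one. Other genes named in the text are not in this count. The C1q-positive results rest on 29 to 61 cells per embryo.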
